A study of Homo sapiens with 9 samples.

Results

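The genes described here are 44 genes of the G2/M transition and mitosis, from the kinase CDK1 and its cyclins to the motors, kinetochore proteins and ubiquitin ligase factors that separate the chromosomes. They are the rows of the deposited expression table that carry a listed symbol, 44 of 20323 rows, and all 44 passed the filter on low counts that left 13153 genes. NUSAP1 stood on 2 rows, of which the one with 52768 expected counts over 9 libraries was used and the one with 135 was not. The cells were HKC-8, an established human line from the proximal tubule of the kidney. Control cells had been transfected with pcDNA3, the empty vector. Wnt1 cells had been given p-Wnt-1, a plasmid that encodes Wnt1, a secreted signalling protein. Wnt1_KP6 cells had been given p-Wnt-1 and KP6, a peptide derived from the kidney protein Klotho. Each group held 3 libraries, and all 9 came from transfected cells of this single line. No cells without a plasmid, and none with KP6 but no Wnt1 plasmid, were analysed here. The study's title places it in Wnt/beta-catenin and ATF3 signalling after acute kidney injury.

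A cell enters mitosis when cyclin B binds CDK1 and CDC25 phosphatases take inhibitory phosphates off it, while Aurora and Polo-like kinases ripen the centrosomes and build the spindle. The checkpoint proteins hold the cell until every kinetochore is attached, after which CDC20 directs the anaphase-promoting complex against cyclin B and securin. Most of these genes are transcribed together, peaking late in the cycle, and are held down in resting cells by the DREAM complex, which binds a promoter element named the cell cycle genes homology region (CHR). NF-Y, which binds the CCAAT box, and the MYBL2-MuvB and FOXM1 complexes activate them. In injured kidney tubules, cells held at G2/M are known for releasing factors that promote fibrosis. In bulk RNA a smaller share of cells in G2 and mitosis and less of each RNA per cell cannot be told apart.

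The promoters of the members are described first. RefSeq promoters (GRCh38.p14, 250 bases before to 50 after the start) were found for 38 of the 44 genes. AURKA, TTK, FOXM1, TPX2, BIRC5 and UBE2C had no entry. The CHR was searched as TTTGAA and the CCAAT box as CCAAT, each on both strands, and the motifs can overlap by at most 1 base. A CHR match was present in 27 of 38 promoters (71.1%), against 15.4% of 27305 promoters of the same length and 9.55% of the 10495 that belong to tested genes. A CCAAT match was present in 30 of 38 (79%), against 35.7% of all promoters. Both were present in 23 of 38 (60.5%), against 6.08% of all. Of 27 promoters of DNA replication genes, 1 held a CHR match (3.7%) and 16 a CCAAT match (59.3%). Of 48 promoters of other mitotic genes, 27 held a CHR match (56.25%) and 30 a CCAAT match (62.5%). In the list of CDK1 brakes and G2 checkpoint genes, 1 of 12 promoters held a CHR match (8.33%) and 8 a CCAAT match (66.7%). In 13 members the CHR match lay within 35 bases before the start, and in 7 it lay only past or across it. Matches to CHR and CCAAT, or their reverse complements TTCAAA and ATTGG, are in capitals in the stretches that follow. The stretches run 5′ to 3′ on the gene's own strand, from genes picked with the results known. They are CDK1 (chr10:60778161-60778260, plus strand), KIF11 (chr10:92593030-92593129, plus), CCNB2 (chr15:59105016-59105145, plus), CCNB1 (chr5:69167050-69167149, plus), PLK1 (chr16:23678789-23678888, plus), KIF23 (chr15:69414249-69414348, plus), KIF18A (chr11:28108157-28108256, minus) and ECT2 (chr3:172750596-172750695, plus).
CDK1: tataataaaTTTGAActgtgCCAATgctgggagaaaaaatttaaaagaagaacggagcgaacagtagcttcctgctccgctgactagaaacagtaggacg
KIF11: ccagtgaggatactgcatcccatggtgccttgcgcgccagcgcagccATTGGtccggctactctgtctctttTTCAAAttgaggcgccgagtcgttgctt
CCNB2: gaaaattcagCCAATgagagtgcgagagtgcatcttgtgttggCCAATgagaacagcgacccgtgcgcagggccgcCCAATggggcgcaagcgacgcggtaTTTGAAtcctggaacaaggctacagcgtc
CCNB1: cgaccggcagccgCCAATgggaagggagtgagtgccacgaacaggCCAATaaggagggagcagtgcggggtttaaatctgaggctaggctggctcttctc
PLK1: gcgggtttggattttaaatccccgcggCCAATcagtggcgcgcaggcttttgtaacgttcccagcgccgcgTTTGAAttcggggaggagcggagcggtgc
KIF23: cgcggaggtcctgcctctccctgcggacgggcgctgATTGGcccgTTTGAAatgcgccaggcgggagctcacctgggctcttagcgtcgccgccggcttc
KIF18A: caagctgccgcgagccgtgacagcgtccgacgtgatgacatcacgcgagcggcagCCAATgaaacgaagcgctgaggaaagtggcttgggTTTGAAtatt
ECT2: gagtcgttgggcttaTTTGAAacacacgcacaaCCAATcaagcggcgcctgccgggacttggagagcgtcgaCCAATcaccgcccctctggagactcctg
CDK1 and KIF11, which had the smallest p of all members in both comparisons with control, each hold a CHR and a CCAAT match. The CHR match of CDK1 lies far from the start, at -161 to -156, and that of KIF11 at -28 to -23. CCNB2 holds 3 CCAAT matches in the stretch shown and a CHR match at positions -29 to -24 from the start, and PLK1 holds its CHR match at the same positions. CCNB1 holds 2 CCAAT matches and no TTTGAA. KIF23, KIF18A and ECT2, which were called higher in replicates 2 and 3 of Wnt1_KP6, hold both motifs too. In the stretches shown their CHR matches lie at -55 to -50, -10 to -5 and -115 to -110. The starts are RefSeq's, and for CCNB1, CCNB2, PLK1, KIF23, KIF18A and ECT2 the GENCODE 29 gene model begins further upstream. A match is a description of the sequence and not of a bound site. Whether the motifs have a part in the differences between groups was not tested.

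Library totals were 21199078 to 27507623 expected counts, estimated counts that need not be whole. The lowest count of any member in any library was 375. WNT1 had an expected count of 0 in all 6 control and Wnt1 libraries and of 1, 2 and 0 in Wnt1_KP6, so its counts do not check the plasmid labels. Replicate 1 stood apart in every group. The first principal component (38.1% of the variance) put the replicate 1 libraries at -37.36 (control), -38.82 (Wnt1) and -38.33 (Wnt1_KP6) and the other 6 between 9.21 and 25.07. By a chi-square test of counts over genes, Wnt1_KP6 replicate 1 differed from Wnt1 replicate 1 by 3.52 per degree of freedom, close to the 3.36 between Wnt1_KP6 replicates 2 and 3, and from those replicates by 98.0 and 96.3. Whether KP6 reached the cells of that library, or what else set replicate 1 apart, cannot be read from the counts. Its Wnt1_KP6 label is thus not checked by them, and every value over 3 Wnt1_KP6 libraries includes this library. Mitochondrial transcripts took 5.18% to 5.72% of counts in the replicate 1 libraries and 7.01% to 7.97% in the others, and their part in the results was not tested. The counts of members called are therefore given with all libraries and, as a second fit, with replicates 2 and 3 only. Replicates 2 and 3 also differed little from each other in Wnt1 (3.12 per degree of freedom), and more in control (13.75). The second fit called 4115 of 13041 genes in Wnt1 against control. Its p-values rest on the small scatter between these libraries and may be too low. Of the 15 kidney and epithelial markers, PAX8, KRT8 and KRT18 were expressed, whereas LRP2, CUBN, AQP1, SLC34A1, ANPEP and HNF4A, which define the mature proximal tubule, were under 1 CPM in all 9 libraries, as were PAX2 of the kidney lineage and CDH1, the epithelial cadherin (8 of the 15 in all). Summed markers of other cell types reached 15.6 to 39.1 CPM for 7 fibroblast genes (control 21.2 to 39.1, Wnt1 15.6 to 20.6, Wnt1_KP6 17.6 to 22.9), at most 0.239 CPM for 5 endothelial genes and 26.2 to 50.6 CPM for 5 leukocyte genes, of which PTPRC and CD3E were at 0 counts throughout. Their part in the results was not tested.

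A level in CPM is the gene's expected count set against the TMM-normalised size of its library. Log2 fold changes stand with an SE, taken as their absolute value over the square root of F in edgeR's quasi-likelihood test. Adjusted p-values are from that test with Benjamini-Hochberg adjustment over all genes, two-sided, unless another tool is named. A gene was called when this p was under 0.05. The libraries of a group are not said to be separate cultures, so these p-values speak only to the variation among libraries, some of which may be technical.

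The members were strongly expressed in all 3 groups. On the FPKM scale, which is corrected for gene length, control means ran from 11.2 ± 3.09 (SD, n = 3) for CENPE, a kinetochore motor, to 177 ± 45.7 for CDC20, the activator of the anaphase-promoting complex. The next highest were CCNB1 (131 ± 6.51 FPKM), ANLN (131 ± 31.1 FPKM), TPX2 (122.96 ± 15.6 FPKM) and UBE2C (121 ± 18.1 FPKM). Given these SDs, the order among CDC20, CCNB1, ANLN, TPX2 and UBE2C does not exceed the spread between control libraries for neighbouring genes. In all, 8 members had a control mean above 100 FPKM, and 5 were under 20 FPKM, namely CENPE, CDC25C, KIF18A, KIF14 and KIF4A. Summed over the 44 members, the level was 6466, 7833 and 7476 CPM in control replicates 1, 2 and 3, 5997, 6412 and 6344 CPM in Wnt1, and 5761, 6247 and 6152 CPM in Wnt1_KP6. All 6 libraries with the Wnt1 plasmid lay below all 3 controls, and control replicate 1 was the lowest of the controls. That library had the lowest control value for 35 of the 44 members (79.5%, against 41.9% of all tested genes).

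**Figure D1:**
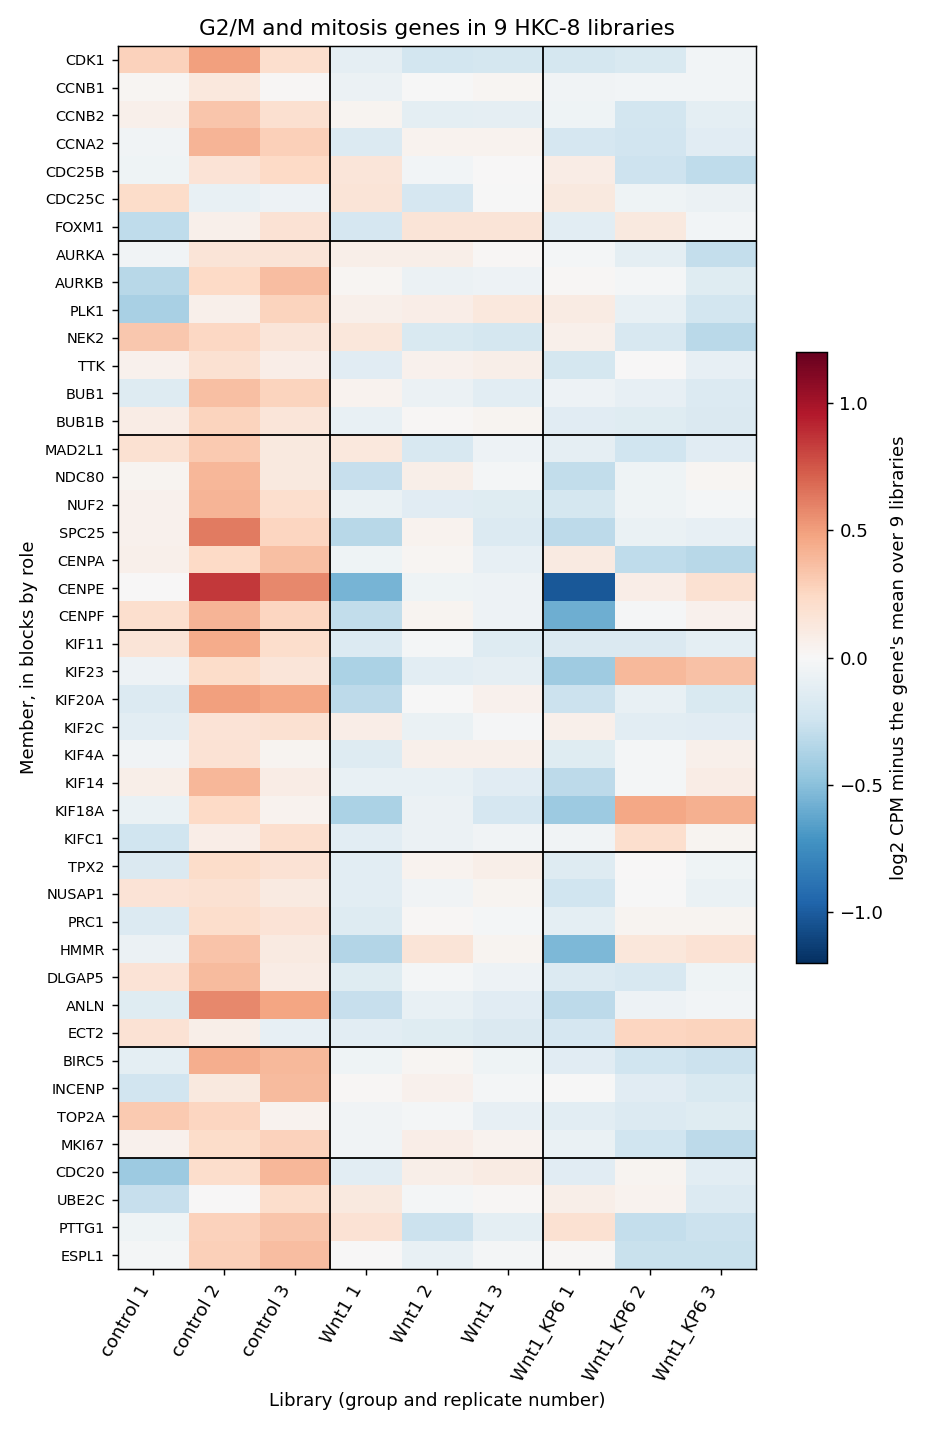
Each row is a member and each column a library, and the colour gives log2 CPM minus the gene's mean over 9 libraries, with members in blocks by role. Control replicates 2 and 3 are above the mean for 43 and 42 of 44 members, and KIF23, KIF18A and ECT2 are high in Wnt1_KP6 replicates 2 and 3.

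Cells given the Wnt1 plasmid were compared with the empty vector to see what the plasmid changes. CDK1, the kinase that drives entry into mitosis, was 90.7 ± 9.72 CPM (SD, n = 3) in control and 63.9 ± 2.69 CPM in Wnt1, a log2 fold change of -0.51 ± 0.10 (adjusted p = 0.121). KIF11, the motor that pushes the spindle poles apart, followed at -0.39 ± 0.10 (adjusted p = 0.193). In edgeR's test no member was called, where 16 of 13153 genes were (0.122%). Members with an unadjusted p under 0.05 numbered 12, all lower (5.21% of all genes were lower at that level), and none were higher (6.01%). That count moved with single libraries, to 3 without control replicate 2 (2.29% of genes), 6 without Wnt1 replicate 3 (3.03%) and 26 without control replicate 1 (11%). DESeq2 called 2 members, CDK1 (adjusted p = 0.00236) and KIF11 (adjusted p = 0.0261), where it called 0.661% of genes lower, and limma on FPKM called none. The log2 fold change was below 0 for 41 of 44 members, against 50.6% of all genes, and the median was -0.23, against -0.00336 over all genes. In 16 members every Wnt1 library lay below every control library, which held for 7.87% of all genes, and in none did every library lie above (8.67%). The members above 0 were PLK1, FOXM1 and UBE2C.

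The median difference was smaller in replicate 1 than in replicates 2 and 3. Between same-numbered libraries the median member log2 difference was -0.11, -0.29 and -0.24 in replicates 1, 2 and 3, and 28, 42 and 41 members were below 0. With replicates 2 and 3 alone, 28 members were called lower and none higher, against 15.3% of genes called lower and 16.3% called higher. Without control replicate 1 alone, 8 members were called lower, CDK1, CCNA2, BUB1, NUF2, KIF11, KIF20A, ANLN and BIRC5 (2.73% of genes). With the replicate number as a block, 95 genes were called (0.0912% of genes lower and 0.631% higher) and again no member.

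CDK1 and KIF11 also had the smallest p when cells with the Wnt1 plasmid and KP6 were compared with the empty vector. This comparison uses the same control libraries, so the values stand beside those of Wnt1 and are not independent of them. CDK1 was 65.5 ± 4.36 CPM in Wnt1_KP6 at -0.47 ± 0.10 (adjusted p = 0.0822), KIF11 was at -0.43 ± 0.10 (adjusted p = 0.0921) and BUB1B, a checkpoint kinase, at -0.32 ± 0.08 (adjusted p = 0.127). MKI67, the proliferation antigen Ki-67, was at -0.40 ± 0.10 (adjusted p = 0.128). No member was called by edgeR, where 30 genes were (0.228%), and 20 members were lower at an unadjusted p under 0.05 (6.68% of genes) with none higher (9.1%). Without control replicate 2 that count was 12 (3.4% of genes) and without control replicate 1 it was 32 (12.1%). DESeq2 called 8 lower, CDK1, CCNA2, BUB1B, MAD2L1, KIF11, DLGAP5, TOP2A and MKI67, where it called 1.52% of genes lower, and limma on FPKM called none. Of the members, 40 of 44 were below 0 (51% of all genes) with a median of -0.27. Every Wnt1_KP6 library lay below every control for 18 members (7.79% of genes) and above for none (8.71%). In 11 members all 6 libraries of both plasmid groups lay below all controls (4.87% of genes). With replicates 2 and 3 only, 31 members were called lower (19.5% of genes) and 3 higher, KIF23, KIF18A and ECT2 (21.1%). Without control replicate 1, 14 were called lower (3.65%), and without Wnt1_KP6 replicate 1 CENPA and MKI67 were (1.29%). The replicate block gave 149 called genes (0.205% of genes lower and 0.928% higher) and no member.

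The comparison of the plasmid groups asked what KP6 changes in cells with the Wnt1 plasmid, and its median was closer to 0. MKI67 had the smallest p, at 553 ± 24.0 CPM in Wnt1 and 469.5 ± 39.7 CPM in Wnt1_KP6, a log2 fold change of -0.23 ± 0.10 (adjusted p = 1). KIF18A and ECT2 leaned the other way, at 0.42 ± 0.22 (adjusted p = 1) and 0.27 ± 0.14 (adjusted p = 1). No gene of the 13153 was called by edgeR (0%) and therefore no member. MKI67 was the 1 member lower at an unadjusted p under 0.05 (0.639% of genes) and none were higher (2.12%). Without Wnt1_KP6 replicate 1 there were 4 lower (3.98% of genes) and 3 higher. In that fit 1288 of 13305 genes had an unadjusted p under 0.05 in either direction. DESeq2 called 17 genes and limma called none, and neither called a member. The median member log2 fold change was -0.06, with 33 of 44 below 0 (49.7% of genes), or 39 of 44 on the FPKM scale, where the median over all genes was itself -0.05. All Wnt1_KP6 libraries lay below all Wnt1 libraries for 5 members, AURKA, BUB1B, BIRC5, TOP2A and MKI67 (2.93% of genes), and above them for KIFC1 (2.87%). With replicates 2 and 3 only, MKI67 and CDC25B were called lower (2.56% of genes), and KIF23, KIF18A and ECT2 were called higher (6.06%). Without Wnt1_KP6 replicate 1, KIF18A was called higher at 0.66 (adjusted p = 0.0456, 1.39% of genes).

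**Figure D2:**
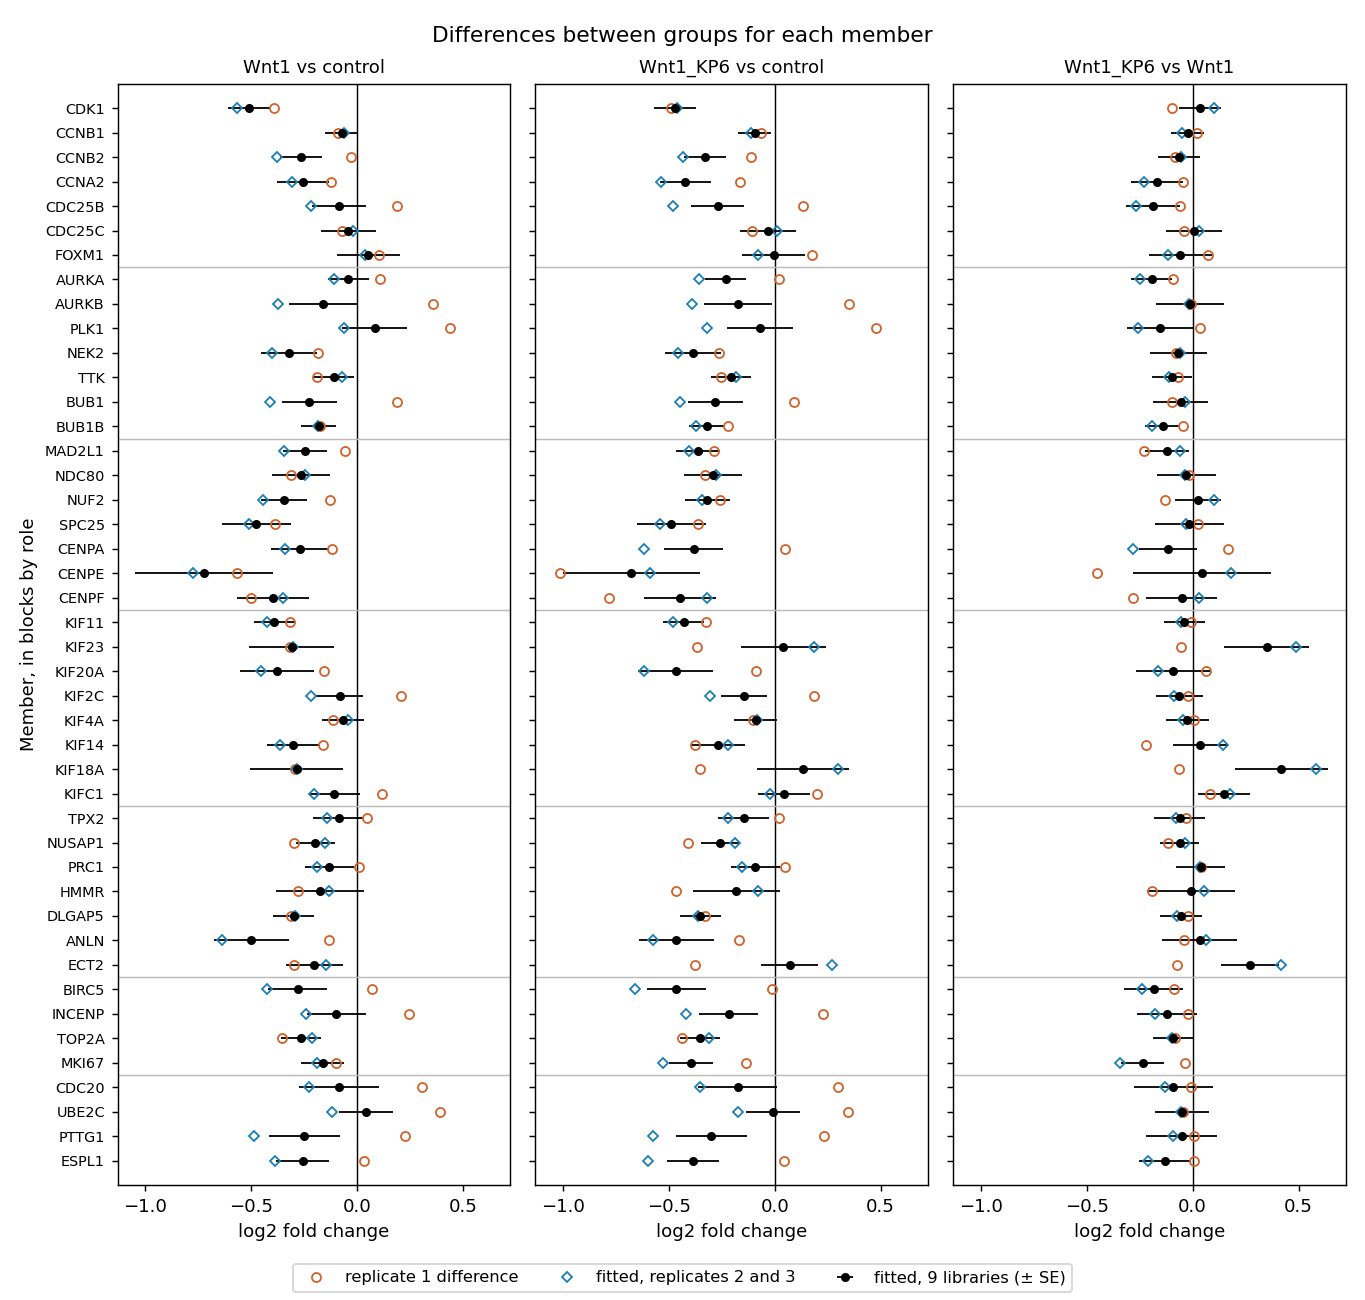
Log2 fold change of each member in the 3 comparisons, as the fit on 9 libraries with its SE (black), the fit on replicates 2 and 3 (blue) and the difference between the replicate 1 libraries (orange). Most black points lie below 0 in both comparisons with control. In each of these comparisons orange points lie below 0 for 28 of 44 members. Those above 0 include PLK1, AURKB and the 4 anaphase control genes.

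**Figure D3:**
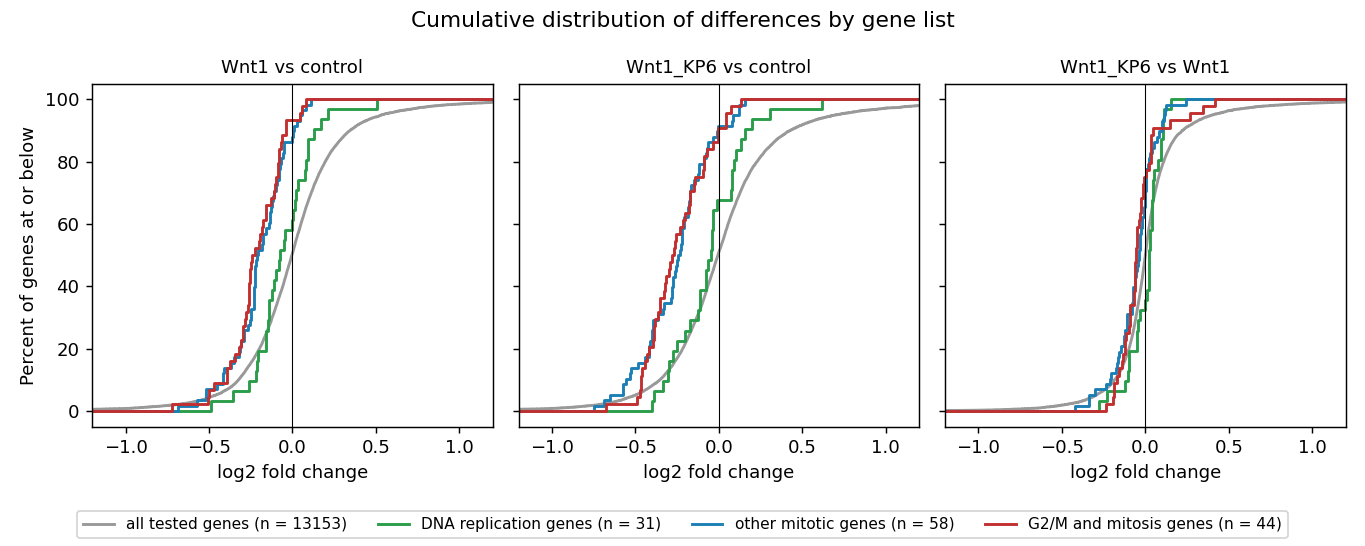
Percent of genes at or below each log2 fold change, for the 44 members, 58 other mitotic genes, 31 DNA replication genes and all 13153 tested genes. The curves of both mitotic lists lie to the left of all genes in both comparisons with control, and the curve of the replication genes lies closer to that of all genes.

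Among the 7 genes of mitotic entry, CDK1 lay below control in every plasmid library and CCNB1 differed little. CDK1 was at 87.7, 102 and 82.8 CPM in control replicates 1, 2 and 3, at 66.9, 62.1 and 62.5 CPM in Wnt1 and at 62.5, 63.5 and 70.5 CPM in Wnt1_KP6. All 6 libraries with the Wnt1 plasmid were below the lowest control. With replicates 2 and 3 only its log2 fold change was -0.56 (adjusted p = 5.13e-04) in Wnt1 and -0.46 (adjusted p = 0.00150) in Wnt1_KP6. CCNB1, the cyclin that activates CDK1 at mitosis, was at 186, 200.4 and 185 CPM in control, 175, 183 and 186 in Wnt1 and 177, 179 and 179 in Wnt1_KP6. These groups lay within a narrow range, and the log2 fold changes were -0.07 ± 0.08 (adjusted p = 0.802) and -0.09 ± 0.08 (adjusted p = 0.623). CCNB1 still lay below every control library in all Wnt1_KP6 libraries, whereas in Wnt1 it overlapped control. Its paralog CCNB2 was at -0.26 ± 0.10 (adjusted p = 0.366) and -0.33 ± 0.10 (adjusted p = 0.166), with no overlap with control in either, and passed the test in replicates 2 and 3 at -0.38 (adjusted p = 0.00292) and -0.43 (adjusted p = 7.56e-04).

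CCNA2, the cyclin of S phase and G2, was at 113, 154 and 142 CPM in control, 104, 119.6 and 119.6 in Wnt1 and 101, 99.1 and 106 in Wnt1_KP6. Its control replicate 1 lay below the other controls, and the log2 fold changes were -0.25 ± 0.12 (adjusted p = 0.476) and -0.42 ± 0.12 (adjusted p = 0.156). Of the phosphatases that switch CDK1 on, CDC25B was at -0.08 ± 0.13 in Wnt1 and -0.27 ± 0.13 in Wnt1_KP6, and CDC25C at -0.04 ± 0.13 and -0.03 ± 0.13. In replicates 2 and 3 CDC25B passed the test in both comparisons with control, at -0.22 (adjusted p = 0.0238) and -0.48 (adjusted p = 7.35e-05), and was also lower in Wnt1_KP6 than in Wnt1 at -0.27 (adjusted p = 0.0241). FOXM1, a transcription factor of this program, was at 149, 192 and 207 CPM in control, 160.2, 205 and 205 in Wnt1 and 168, 199 and 179.5 in Wnt1_KP6. Replicate 1 was the lowest of each group, and the groups overlapped, with log2 fold changes of 0.06 ± 0.15 and -0.00335 ± 0.15, too close to 0 for a direction. Of the exon bases of FOXM1, 15.9% overlap ITFG2 on the opposite strand, and no strand information is stated for these counts, so its level is uncertain.

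**Figure D4:**
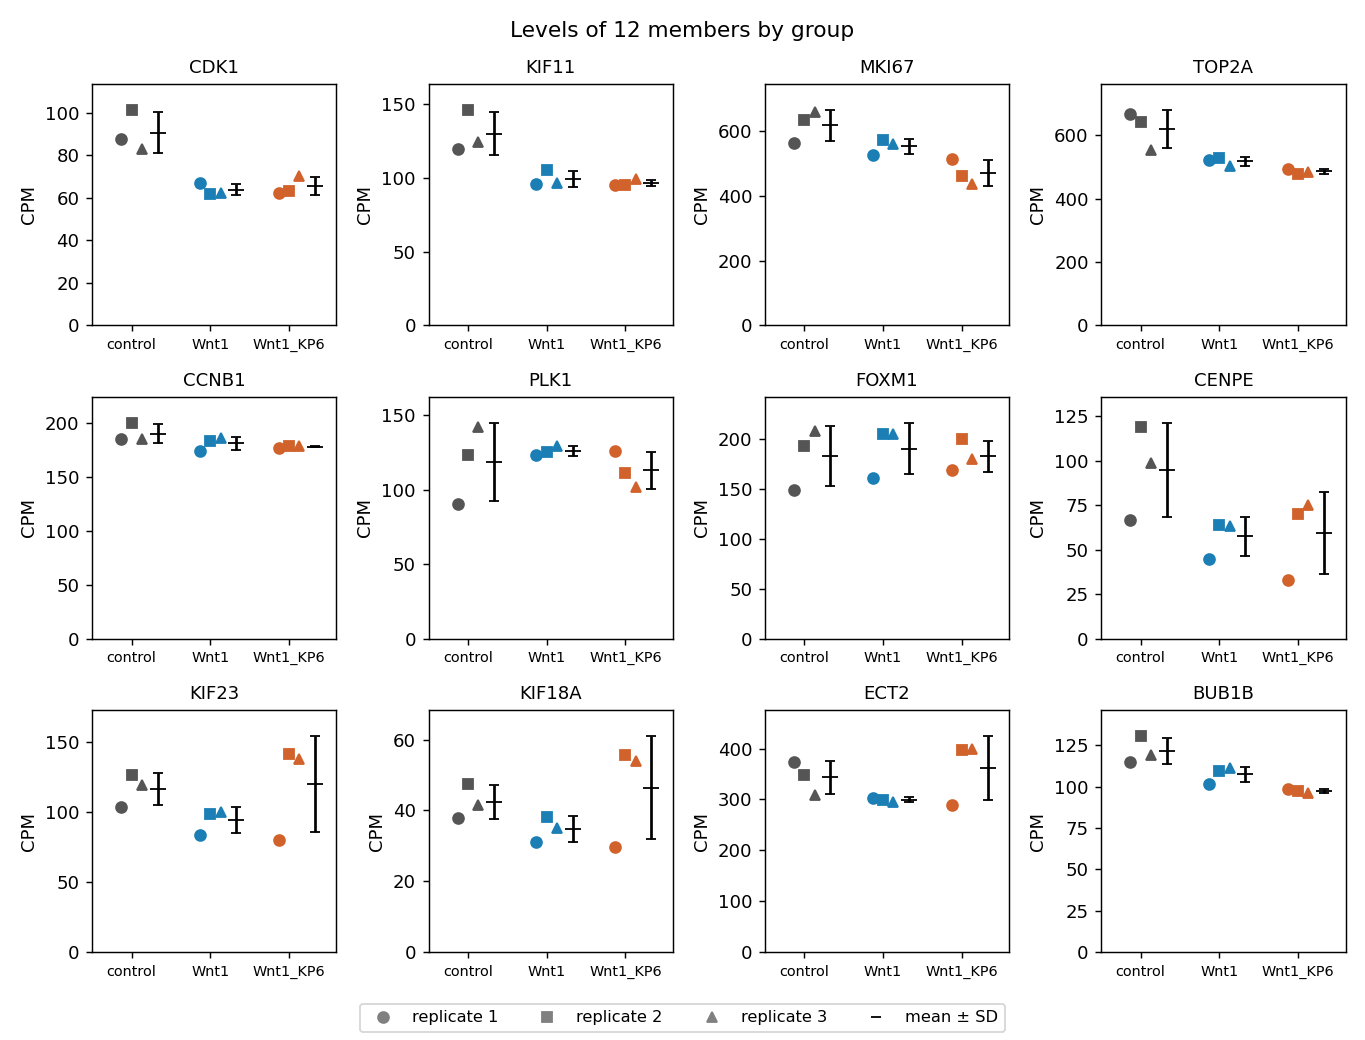
CPM of 12 members in each group, with 1 symbol for each replicate number and the mean ± SD of 3 libraries beside them. CDK1 and KIF11 lie below control in all 6 plasmid libraries, PLK1 is lowest in control replicate 1, and KIF23, KIF18A and ECT2 are highest in Wnt1_KP6 replicates 2 and 3.

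The 7 mitotic kinases spread around 0 in replicate 1 and lay mostly below it in replicates 2 and 3. PLK1, the Polo-like kinase of centrosome and spindle assembly, was at 90.6, 124 and 142 CPM in control, 123.2, 125 and 129 in Wnt1 and 126, 111 and 102 in Wnt1_KP6. The controls alone spanned the whole range of the other groups, with replicate 1 at the bottom. Its log2 fold change was 0.08 ± 0.16 (adjusted p = 0.902) in Wnt1 and -0.07 ± 0.16 (adjusted p = 0.882) in Wnt1_KP6. Between same-numbered libraries it was 0.44, 0.02 and -0.14 in Wnt1 and 0.48, -0.15 and -0.48 in Wnt1_KP6, and with replicates 2 and 3 only it was -0.06 (adjusted p = 0.599) and -0.32 (adjusted p = 0.00571). The direction in Wnt1 thus turned with replicate 1. PLK1 shares 12.5% of its exon bases with genes on the opposite strand. AURKB, the kinase of the chromosome passenger complex, showed the same split, with differences of 0.36, -0.31 and -0.43 in replicates 1, 2 and 3 of Wnt1 and 0.35, -0.26 and -0.51 in Wnt1_KP6.

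NEK2, a centrosome kinase, was below control in every plasmid library, at -0.32 ± 0.13 (adjusted p = 0.409) and -0.39 ± 0.13 (adjusted p = 0.207). BUB1B was at 115, 131 and 119 CPM in control, 102, 109 and 111 in Wnt1 and 98.7, 97.6 and 95.9 in Wnt1_KP6. Its 3 groups did not overlap. In replicates 2 and 3 it was called lower in Wnt1_KP6 against control at -0.37 (adjusted p = 7.95e-04), and in Wnt1 it was at -0.18 (adjusted p = 0.0597). BUB1, its checkpoint partner, was above control in replicate 1 and below it in replicates 2 and 3, at 0.19, -0.43 and -0.39 in Wnt1. AURKA, which matures the centrosomes, was at -0.19 ± 0.10 (adjusted p = 1) between Wnt1_KP6 and Wnt1, where all 3 Wnt1_KP6 libraries lay below all Wnt1 libraries (107, 99.9 and 89.1 against 114, 114 and 110.0 CPM). TTK, the checkpoint kinase MPS1, was at -0.11 ± 0.09 and -0.20 ± 0.09 against control.

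The 7 checkpoint and kinetochore genes (MAD2L1, NDC80, NUF2, SPC25, CENPA, CENPE and CENPF) were below control throughout in Wnt1. All 7 lay below 0 in each of replicates 1, 2 and 3, with medians of -0.31, -0.51 and -0.34. The block's median was -0.34 in Wnt1 and -0.38 in Wnt1_KP6, and -0.03 between the plasmid groups. SPC25, a subunit of the NDC80 complex that holds microtubules, was at 23.1, 34.2 and 26.7 CPM in control, 17.6, 22.99 and 19.9 in Wnt1 and 17.9, 21.1 and 20.8 in Wnt1_KP6. No plasmid library reached the lowest control, and the log2 fold changes were -0.47 ± 0.16 (adjusted p = 0.323) and -0.49 ± 0.16 (adjusted p = 0.196). NUF2, of the same complex, was at -0.34 ± 0.11 (adjusted p = 0.286) and -0.32 ± 0.11 (adjusted p = 0.198), and NDC80 itself at -0.26 ± 0.14 and -0.29 ± 0.14.

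CENPE, a kinesin that carries chromosomes to the spindle equator, varied widely between libraries. CENPE was at 66.4, 119 and 98.6 CPM in control replicates 1, 2 and 3, at 44.9, 64.1 and 63.4 CPM in Wnt1 and at 32.8, 70.0 and 75.0 CPM in Wnt1_KP6. Replicate 1 was the lowest library in each group, and Wnt1 did not overlap control, whereas Wnt1_KP6 did. Its fold change was the largest among the members in both comparisons with control, -0.72 ± 0.32 (adjusted p = 0.454) and -0.68 ± 0.32 (adjusted p = 0.360), and with replicates 2 and 3 only it was -0.77 and -0.59, both called. CENPF, a large kinetochore and matrix protein, was at -0.39 ± 0.17 and -0.45 ± 0.17, and there the difference in replicate 1 was the larger, -0.50 and -0.78. CENPA, the histone that marks centromeres, and MAD2L1, the checkpoint inhibitor of CDC20, were at -0.27 ± 0.14 and -0.24 ± 0.10 in Wnt1 and at -0.38 ± 0.14 and -0.36 ± 0.10 in Wnt1_KP6.

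The 8 kinesins were all below 0 in Wnt1, and 5 of 8 were in Wnt1_KP6 against control. KIF11 (chr10:92593286-92655395) was at 119, 146 and 124 CPM in control, 95.8, 105 and 96.2 in Wnt1 and 95.2, 95.3 and 98.9 in Wnt1_KP6. Every plasmid library was below every control, and the differences between same-numbered libraries were -0.32, -0.47 and -0.37 in Wnt1. KIF20A, a motor of cytokinesis, was at -0.37 ± 0.18 (adjusted p = 0.462) and -0.47 ± 0.18 (adjusted p = 0.240), and KIF14, another, at -0.30 ± 0.13 and -0.27 ± 0.13. KIF2C, which takes microtubules apart at kinetochores, was at 0.21 in replicate 1 and at -0.24 and -0.19 in replicates 2 and 3. KIF4A, a chromosome-bound motor, and KIFC1, a motor that clusters spindle poles, were close to control in both groups, at -0.06 ± 0.10 and -0.11 ± 0.12 in Wnt1 and -0.09 ± 0.10 and 0.04 ± 0.12 in Wnt1_KP6. The near-identical gene KIF4B had at most 5.01 expected counts in a library.

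KIF23 (chr15:69414246-69448427), the motor of the centralspindlin complex at the spindle midzone, and KIF18A (chr11:28020620-28108308), which dampens chromosome movement, were high in 2 of the Wnt1_KP6 libraries. KIF23 was at 104, 126 and 119 CPM in control replicates 1, 2 and 3, at 83.2, 98.7 and 100.2 CPM in Wnt1 and at 80.2, 141 and 138 CPM in Wnt1_KP6. The Wnt1 libraries were all below control, while Wnt1_KP6 held both the lowest library of the 9 (replicate 1) and the 2 highest. KIF18A was at 37.9, 47.5 and 41.4 CPM in control, 31.0, 38.2 and 34.998 in Wnt1 and 29.7, 55.6 and 54.0 in Wnt1_KP6, with the same order in Wnt1_KP6. The fit on 9 libraries gave 0.35 ± 0.20 (adjusted p = 1) and 0.42 ± 0.22 (adjusted p = 1) for Wnt1_KP6 against Wnt1. With replicates 2 and 3 only, both were called higher, at 0.49 (adjusted p = 1.80e-04) and 0.58 (adjusted p = 5.51e-04). Between the replicate 1 libraries they were at -0.05 and -0.06.

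ECT2 (chr3:172750682-172821474), the exchange factor that centralspindlin recruits to start cytokinesis, showed the same order of libraries in Wnt1_KP6. It was at 374, 348 and 309 CPM in control, 304, 299.8 and 295 in Wnt1 and 288, 396 and 399 in Wnt1_KP6. Wnt1_KP6 replicates 2 and 3 lay above all controls and replicate 1 below them. The log2 fold change against Wnt1 was 0.27 ± 0.14 (adjusted p = 1) over 9 libraries and 0.42 (adjusted p = 5.00e-04) in replicates 2 and 3. ANLN, an actin-binding scaffold of the cleavage furrow, was at 349, 575 and 534 CPM in control, 319, 364 and 351 in Wnt1 and 311, 369 and 378 in Wnt1_KP6. Control replicates 2 and 3 stood well above the other 7 libraries, so the log2 difference of Wnt1 from control was -0.13 in replicate 1 and -0.66 and -0.61 in replicates 2 and 3.

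DLGAP5, a spindle protein that bundles kinetochore fibres, was at -0.30 ± 0.10 (adjusted p = 0.302) and -0.35 ± 0.10 (adjusted p = 0.145) with no overlap with control in either. HMMR, a microtubule-binding protein of the poles, TPX2, which activates AURKA, and PRC1, which crosslinks the midzone, had log2 fold changes of -0.17 ± 0.21, -0.09 ± 0.12 and -0.13 ± 0.12 in Wnt1, none of them called over 9 libraries. NUSAP1, a microtubule-bundling protein, was at -0.20 ± 0.09 (adjusted p = 0.462) and -0.26 ± 0.09 (adjusted p = 0.220). Gene models that share 62.2% of the exon bases of NUSAP1 and 57.6% of those of PRC1 lie on the same strand, so the reads of these genes could have been split and their values are uncertain. Smaller overlaps with other genes, from 5.1% to 12.7% of exon bases, touch KIF20A, CENPA, CDC25C, CCNA2, BUB1B, PLK1 and KIFC1.

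The 4 chromosome-bound proteins (BIRC5, INCENP, TOP2A and MKI67) were lower in Wnt1_KP6 than in Wnt1 in every replicate number, though of these MKI67 alone passed the test there, and only in replicates 2 and 3. MKI67 (chr10:128096659-128126385) was at 563, 632 and 657 CPM in control, 526, 572 and 559.7 in Wnt1 and 513, 460.3 and 435 in Wnt1_KP6. All Wnt1_KP6 libraries lay below all Wnt1 libraries, with replicate 1 closest to them. With replicates 2 and 3 only, MKI67 was called lower, at -0.34 against Wnt1 on the log2 scale (adjusted p = 0.00118) and -0.53 against control (adjusted p = 7.15e-06). TOP2A, the topoisomerase that untangles sister chromatids, was at 668, 641 and 553 CPM in control, 523, 528 and 501 in Wnt1 and 494, 479 and 485 in Wnt1_KP6. Its groups did not overlap, and it was -0.26 ± 0.09 (adjusted p = 0.345) in Wnt1, -0.35 ± 0.10 (adjusted p = 0.138) in Wnt1_KP6 and -0.09 ± 0.09 between the plasmid groups. BIRC5 (survivin) and INCENP, which form the passenger complex with AURKB, were at -0.28 ± 0.14 and -0.10 ± 0.14 in Wnt1 and at -0.46 ± 0.14 and -0.22 ± 0.14 in Wnt1_KP6.

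The 4 genes of anaphase control (CDC20, UBE2C, PTTG1 and ESPL1) split by replicate number. In replicate 1 none of them was below control in Wnt1, with a median difference of 0.27, and in replicates 2 and 3 all 4 were, with medians of -0.26 and -0.35. CDC20 was at 199, 312 and 354 CPM in control, 246, 281 and 288 in Wnt1 and 245, 275 and 246 in Wnt1_KP6. Control replicate 1 was the lowest of the 9 libraries and control replicate 3 the highest. PTTG1, the securin that holds separase back, and ESPL1, separase itself, passed the test in replicates 2 and 3 at -0.48 (adjusted p = 4.49e-04) and -0.39 (adjusted p = 8.34e-04) in Wnt1, whereas UBE2C, the ubiquitin-conjugating partner of the complex, was at -0.12 (adjusted p = 0.343). The close copy PTTG2 had at most 1 expected count. In all, 14 members were above control in replicate 1 and below it in replicates 2 and 3 of Wnt1. The share of all genes with that split was not counted, so it is not shown to be particular to the members. In Wnt1, 25 members were below control in all 3 (17.9% of all genes). The spread between controls was wider for the members than between plasmid libraries, with a median CV of 12.4% in control, 5.99% in Wnt1 and 7.97% in Wnt1_KP6, against 14.3%, 9.89% and 11.7% over all genes.

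Other genes of the same pathway were taken from separate lists. Of 58 further mitotic genes, 51 were below 0 in Wnt1, 53 in Wnt1_KP6 against control and 41 in Wnt1_KP6 against Wnt1, with medians of -0.21, -0.24 and -0.04. None was called by edgeR over 9 libraries. At an unadjusted p under 0.05, 19, 24 and 1 were lower (5.21%, 6.68% and 0.639% of all genes). None was higher (6.01%, 9.1% and 2.12%). DESeq2 called 3 lower in Wnt1, PBK, CENPK and KNL1 (0.661% of genes), and 10 lower in Wnt1_KP6 against control (1.52%). It called none in Wnt1_KP6 against Wnt1, and limma on FPKM called none. PBK, a mitotic kinase, was at -0.68 ± 0.13 (adjusted p = 0.113) in Wnt1, and CDCA2, a phosphatase partner on chromosomes, at -0.75 ± 0.13 (adjusted p = 0.0584) in Wnt1_KP6. With the replicate block, CDCA2 (adjusted p = 0.0471), ASPM (0.0287) and KNL1 (0.041) were called lower in Wnt1_KP6 against control, 0.205% of all genes being called lower there. In replicates 2 and 3, 31 of the 58 were called lower in Wnt1 and 37 in Wnt1_KP6 against control, with 0 and 3 called higher. Of all genes 15.3% and 19.5% were called lower in that fit and 16.3% and 21.1% higher.

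The genes of DNA replication, which precede mitosis in the cycle, had medians closer to 0 over 9 libraries, but not in replicate 1. Of 31, 19, 21 and 11 were below 0 in Wnt1 against control, Wnt1_KP6 against control and Wnt1_KP6 against Wnt1, with medians of -0.07, -0.05 and 0.02 and no call. Those lower at an unadjusted p under 0.05 numbered 4, 3 and 0 (5.21%, 6.68% and 0.639% of all genes). Those higher numbered 0, 2 and 0 (6.01%, 9.1% and 2.12%). DESeq2 called GINS1 and RRM1 lower in Wnt1_KP6 against control (1.52% of genes) and no other replication gene. The smallest p-values in Wnt1 were for POLE2 at -0.36 ± 0.09 (adjusted p = 0.213), RRM1 at -0.26 ± 0.09 (adjusted p = 0.299) and CCNE2 at -0.49 ± 0.20 (adjusted p = 0.392). Between the replicate 1 libraries 27 of 31 were below 0 in both comparisons with control, with medians of -0.16 and -0.15, against 28 of 44 members and medians of -0.11 and -0.12. In replicates 2 and 3, 4 replication genes were called higher and 4 lower in Wnt1 (12.9% each way, against 16.3% higher and 15.3% lower of all genes). The difference between this list and the members was not tested. Of 15 subunits of the anaphase-promoting complex none was called by edgeR or DESeq2, and none had an unadjusted p under 0.05 in edgeR's test in any comparison.

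Among 22 regulators of G2/M transcription none was called by edgeR or DESeq2, with medians of -0.04, -0.05 and -0.01 in the same order. Those with an unadjusted p under 0.05 were 2 lower and 1 higher, 1 lower, and none. Of all genes 5.21%, 6.68% and 0.639% were lower at that level and 6.01%, 9.1% and 2.12% higher. MYBL2, the activator that joins MuvB, was at 269, 411 and 468 CPM in control, 301, 337 and 343 in Wnt1 and 303, 342 and 327 in Wnt1_KP6. Control replicate 1 was again the lowest of the 9 and the other controls the highest, as for CDC20, and MYBL2 was named after its values were seen. NFYB, a subunit of the CCAAT-binding NF-Y, had the smallest p of the list in both comparisons with control, -0.39 ± 0.13 (adjusted p = 0.304) and -0.44 ± 0.13 (adjusted p = 0.155). Of the members with a promoter entry, the 27 with a CHR match had a median log2 fold change of -0.26 in Wnt1 and the 11 without one -0.22, and in Wnt1_KP6 against control the medians were -0.32 and -0.28. The ranges overlapped throughout, and the difference was not tested. Only exact TTTGAA within the RefSeq window was searched, so the lack of a match does not show that a promoter lacks a CHR.

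Brakes on CDK1 and other genes of the G2 checkpoint (15 genes) gave the only call by edgeR among these lists over 9 libraries without the block. The list also holds CDC25A, one of the CDC25 phosphatases, which is not a brake. At an unadjusted p under 0.05, 1 was higher in Wnt1 (6.01% of all genes), 7 in Wnt1_KP6 against control (9.1%) and 4 in Wnt1_KP6 against Wnt1 (2.12%). None was lower (5.21%, 6.68% and 0.639% of all genes). SFN, the 14-3-3 sigma protein that keeps CDK1 and cyclin B out of the nucleus, was at 105, 86.7 and 107 CPM in control, 215, 269.9 and 257 in Wnt1 and 206, 323 and 295 in Wnt1_KP6. All 6 plasmid libraries were above all controls. SFN rose in both, at 1.31 ± 0.18 (adjusted p = 0.0422) and 1.46 ± 0.18 (adjusted p = 0.0258), and stood at 0.15 ± 0.17 (adjusted p = 1) between the plasmid groups. The call depended on which library was left out. It was kept without control replicate 1 (adjusted p = 0.0105 and 0.00594), without Wnt1_KP6 replicate 1 (adjusted p = 0.0116 and 3.23e-04) and with replicates 2 and 3 only (adjusted p = 4.13e-08 and 3.86e-09). Without control replicate 2 the log2 fold changes were 1.22 (adjusted p = 0.325) and 1.37 (adjusted p = 0.227), neither called, and the call was also lost without control replicate 3, without Wnt1 replicate 2 or 3 and without Wnt1_KP6 replicate 2 or 3, in both comparisons, and for Wnt1 without its replicate 1. CDKN1A, the p53-induced inhibitor p21, was at 45.8, 26.0 and 29.1 CPM in control, 53.7, 63.7 and 69.0 in Wnt1 and 54.3, 211 and 196 in Wnt1_KP6, where replicates 2 and 3 were high and replicate 1 was not. Against control it was 2.19 ± 0.46 (adjusted p = 0.0866) in Wnt1_KP6.

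WEE1, the kinase that phosphorylates and blocks CDK1, was at 62.2, 54.6 and 51.6 CPM in control, 52.6, 50.7 and 49.3 in Wnt1 and 53.3, 163 and 162 in Wnt1_KP6. Its highest libraries were Wnt1_KP6 replicates 2 and 3, as for KIF23, KIF18A and ECT2. PLK3, a stress-activated Polo-like kinase, had 17.8, 89.0 and 75.7 CPM in Wnt1_KP6 against 18.4, 16.1 and 16.7 in Wnt1, and BTG2, an antiproliferative p53 target, 2.23, 6.03 and 5.497 against 1.35, 1.57 and 2.17 CPM. Over 9 libraries these stood at 1.31 ± 0.36, 1.83 ± 0.49 and 1.43 ± 0.41 for Wnt1_KP6 against Wnt1, each with an adjusted p of 1. In replicates 2 and 3, 7 of the 15 genes of this list were called higher in that comparison (6.06% of all genes) and none lower (2.56%), with 5 below 0. Against control in the same fit 7 were called higher (21.1% of all genes) and 2 lower (19.5%). GADD45A, a stress-induced inhibitor of CDK1, was called higher in Wnt1_KP6 against control with the replicate block (adjusted p = 0.0366) and was not called without it, at 1.94 ± 0.56 (adjusted p = 0.159). DESeq2 called SFN higher in Wnt1 (1.47% of genes were called higher there), PLK3 in Wnt1_KP6 against Wnt1 (0.0943%), and CDKN1A, WEE1, SFN, GADD45A and PLK3 in Wnt1_KP6 against control (3.66%). The other genes of this list gave no call over 9 libraries by either tool.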

How the data were processed

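RNA of 9 HKC-8 libraries was measured by poly(A) RNA sequencing, per the labels' protocols, in 3 groups taken from the treatment labels. The build was hg38 and the tools listed are RSEM, HISAT2, Bowtie2 2.2.8, StringTie 1.3.1 and fastp 0.18.0, per the submitters' processing notes. The role of each tool, with annotation and strand settings, is not given in the sources used here. Per the file headers, the authors deposited an expected count and an FPKM value per gene and library, and 87.6% of the expected counts were exactly whole, zeros included (83.2% of those above 0). FPKM values, scaled by the authors for gene length and library size, were used only to compare levels between genes and in the limma alternatives.

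Expected counts were rounded, and genes were filtered with filterByExpr (a minimum count of 10 and a minimum total of 15), leaving 13153. edgeR 4.0.16 in R 4.3.3 fitted 3 group means to all 9 libraries with TMM factors and a robust quasi-likelihood test (6 residual degrees of freedom before moderation, Benjamini-Hochberg threshold 0.05). CPM are expected counts over the TMM-scaled library size, and differences between same-numbered libraries are log2(CPM + 0.1). DESeq2 1.42.0 and limma 3.58.1 served as alternatives, beside other size factors, no filter, a replicate block, each library left out, and replicates 2 and 3 only. The edgeR script was tested on simulated counts first.

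Same-numbered libraries deviated together from their group means (correlations over genes of 0.11 to 0.672 in 9 pairs, all above 0.1), so the replicate number from the titles was used as a block in an alternative fit. Libraries numbered 2 and 3 of different groups correlated as well (0.154 to 0.398), so the correlations separate replicate 1 from the others and do not show that numbers 2 and 3 pair libraries. The members, the other lists and the alternatives were chosen with earlier results of these data known. Any member could be named, and of the other lists the 3 genes with the smallest p in each comparison and those called. Coordinates are 1-based, from GENCODE 29 on GRCh38, and promoters are RefSeq's. One marker of another cell type is not reported here by name.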

Additional observations from a re-analysis of the deposited data

How the results depend on the processing

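The median member log2 fold change stayed below 0 in every comparison under all 16 alternatives, from -0.36 to -0.22 for Wnt1_KP6 against control and from -0.28 to -0.17 for Wnt1 against control when each library was left out. For Wnt1_KP6 against Wnt1 it was -0.0903 to -0.0366 with each library left out, and limma gave -0.11 on log2(FPKM + 0.1) and -0.10 on log2(FPKM + 1), with 39 of 44 members below 0 and medians over all genes of -0.05 on both scales. In the order Wnt1 against control, Wnt1_KP6 against Wnt1 and Wnt1_KP6 against control, DESeq2 called 284, 17 and 656 genes and 2, 0 and 8 members, and replicates 2 and 3 alone gave 4115, 1124 and 5293 genes and 28, 5 and 34 members. Leaving out each library gave 0 to 879, 0 to 214 and 0 to 1198 genes and 0 to 8, 0 to 1 and 0 to 14 members, the highest counts coming without control replicate 1 in both comparisons with control and without Wnt1_KP6 replicate 1 between the plasmid groups. For Wnt1_KP6 against control, limma on log2(FPKM + 1) called 10 genes.

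With the replicate number as a block, 95 and 149 genes were called against control in Wnt1 and Wnt1_KP6, no member changed its call in any comparison, and FOXM1 in Wnt1_KP6 turned from just below 0 to just above it (0.00801). Other changes of sign were in values near 0. In Wnt1, PLK1 ranged from -0.0774 to 0.23 and FOXM1 from -0.0718 to 0.16 with each library left out, and PLK1 was -0.0607 with replicates 2 and 3. In Wnt1_KP6 against control, PLK1 ranged from -0.23 to 0.0789 and FOXM1 from -0.13 to 0.10. CDK1 between the plasmid groups ranged from -0.0190 to 0.0725 and was -0.0135 and -0.0132 by limma with 0.1 and 1 added. The causes were not tested. Of the named members' other values, 444 kept their direction and their side of the threshold and 37 passed it only under an alternative, 19 of them with replicates 2 and 3. The alternatives for SFN were added after its call was seen.

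All members had at least 375 counts in a library. With 3 libraries a group, a difference that is not called is not shown to be absent.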
